A study of Mus musculus with 6 samples.

Results

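The alpha and beta tubulin isotypes are 9 genes chosen by name out of the 51789 genes of the count table: Tuba1a, Tuba1b, Tuba1c and Tuba4a for alpha tubulin, and Tubb5, Tubb4b, Tubb2a, Tubb6 and Tubb1 for beta tubulin. The rule for their choice used no measured value, but the members were chosen with earlier results of these data known. Of the 9 genes, 8 had at least 1 count and 7 passed the filter on low counts and were tested. The libraries came from mouse bone marrow neutrophils selected with Ly6G beads and read from the 3′ end of transcripts (Lexogen QuantSeq), with 3 libraries labelled WT (Snph control) and 3 labelled KO (Snph knockout). The labels name no strain, age, sex, deleted part of Snph or number of animals. p-values therefore measure only the spread between these libraries, which may be technical.

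Alpha and beta tubulin pair into the dimer from which microtubules are built. Each protein is encoded by several genes whose products, called isotypes, differ mainly in a short acidic tail at the carboxyl end. Enzymes that add glutamate chains, or remove and restore the final tyrosine of alpha tubulin, act on this tail, and motors and other proteins read it. Syntaphilin, the product of Snph, is known for holding mitochondria on the microtubules of axons, and in neutrophils microtubules grow from the centrosome and help to position the organelles of a polarised cell.

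The coding ends are shown because they encode the tails in which isotypes differ. Each line below gives the last 30 coding bases, 5′ to 3′, from GENCODE vM21 transcripts (GRCm38), with the last codon before the stop codon in capitals. Tuba1a, Tuba1b and Tubb6 are named only.
Tuba1c: gaaggagacgatgagggtgaggaaTATtaa
Tuba4a: tatgaggacgaggatgagggagaaGAGtag
Tubb5: ttcggagaggaggcagaagaggagGCCtaa
Tubb4b: gaggaggaggctgaggaggaggtgGCTtag
Tubb2a: gaggaggaggagggtgaagatgagGCTtga
Tubb1: gaggtggaggcagaagacaaagatCATtag

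Tuba1c ends in a tyrosine codon and Tuba4a in a glutamate codon, so that the Tuba4a product lacks the genetically encoded final tyrosine. Tubb5, Tubb4b and Tubb2a end in an alanine codon and Tubb1 in a histidine codon. The ends of Tuba1c and Tuba4a differed at 13 of 30 bases. The first 12 coding bases were atgcgtgagtgc in all 3 Tuba1 genes and atgcgcgagtgc in Tuba4a. They encode the amino terminus that is read during translation when cells adjust tubulin mRNA to the pool of free tubulin, a step that needs the protein of Ttc5.

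The genes lie on 6 chromosomes in the mm10 assembly (GRCm38). Tuba1b (ENSMUSG00000023004, 98931425 to 98934565, minus strand), Tuba1a (ENSMUSG00000072235, 98949837 to 98953703, minus strand) and Tuba1c (ENSMUSG00000043091, 99029891 to 99038110, plus strand) are neighbours on chromosome 15. Tuba4a (ENSMUSG00000026202) lies on chromosome 1 at 75214228 to 75219865 and Tubb5 (ENSMUSG00000001525) on chromosome 17 at 35833921 to 35838306. Tubb4b (ENSMUSG00000036752, 25222160 to 25224702) and Tubb1 (ENSMUSG00000016255, 174450695 to 174457882) are on chromosome 2. Tubb2a (ENSMUSG00000058672) is on chromosome 13 at 34074274 to 34078007 and Tubb6 (ENSMUSG00000001473) on chromosome 18 at 67390717 to 67402749.

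How far reads can be told apart differs between the genes. The coding sequences of the 3 Tuba1 genes were 97.6% to 98.4% identical, whereas Tuba1a and Tuba4a were 85.2% identical and Tubb5 and Tubb4b 82.4%. Of the words of 50 bases in the last 500 bases of the transcript, 56.3% in Tuba1a, 63.6% in Tuba1b and 68.3% in Tuba1c also occurred in another gene. In the last 200 bases these shares were 0.0%, 0.0% and 5.3%. The partners were the other Tuba1 genes and gene models with similar sequence. Tubb4b shared 35.3% of the words of its last 500 bases, all with gene models outside the set, and Tubb2a shared 42.4%, with Tubb2b, Tubb4a and the model Tubb2a-ps2. Neither shared any in its last 200 bases. Tubb5, Tubb6, Tubb1 and Tuba4a shared none in their last 500 bases. A count of a single Tuba1 gene is therefore uncertain where a read lies before the last 200 bases. Exons of Tuba4a overlap 1379 exon bases of Stk16, a kinase gene on the other strand, and exons of Tuba1a and Tuba1b overlap the gene model Gm49450 on their own strand. Words were searched in the sense strand of transcripts only, so the Stk16 overlap could not enter the shares above. No source used here gives the strand setting of the counting, so reads of Tuba4a and Stk16 in the overlap cannot be told apart. Stk16 itself stood at 60.4 ± 4.7 counts per 1000000 (CPM) under the WT label and at 61.5 ± 1.4 CPM under the KO label (n = 3 each, SD).

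**Figure D1:**
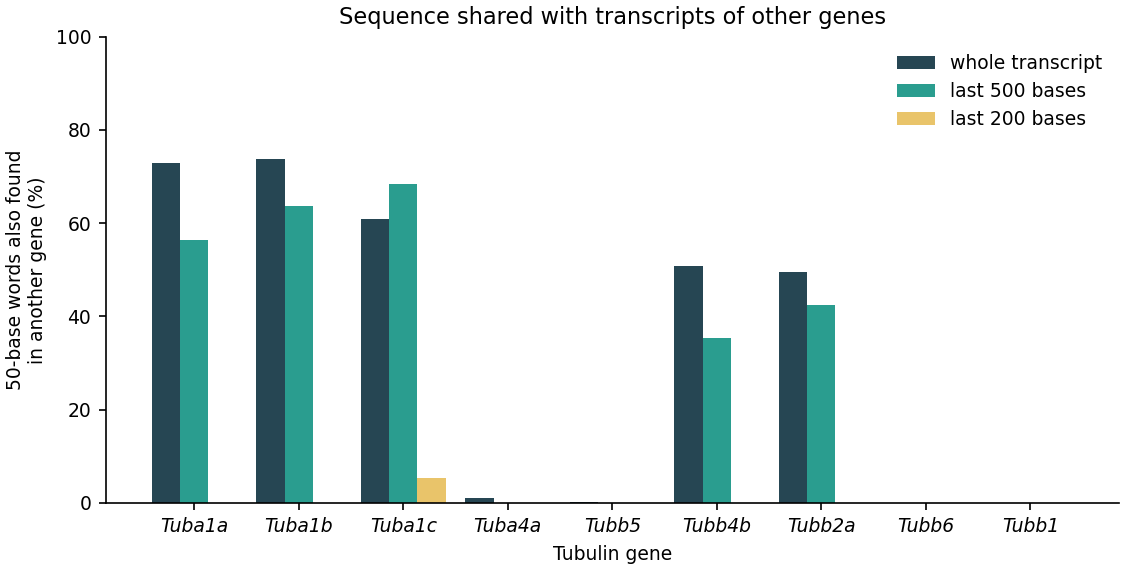
Share of the 50-base words of each tubulin transcript (y axis, percent) that also occur in a transcript of another gene, over the whole transcript, its last 500 bases and its last 200 bases. The Tuba1 genes share 56.3% to 68.3% of the words of their last 500 bases and at most 5.3% of those of their last 200. Only the sense strand of transcripts was searched, so the overlap of Tuba4a with Stk16 is not shown.

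Total counts per library ran from 7018388 to 9664381. Levels are in CPM, with library totals scaled by TMM factors, and for 3′ tags they follow the number of transcripts more than their length. The targeted gene Snph went against the labels: no WT-labelled library had a count of it, and KO 1, KO 2 and KO 3 had 5, 2 and 8 counts. These counts are few, and the gene did not pass the filter on low counts. With no filter its edgeR adjusted p was 0.185. Every direction below rests on the labels as they stand. All 11 neutrophil markers had counts, and S100a8 and Retnlg of that list rose. Over all genes, 107 of 10397 passed edgeR's quasi-likelihood test with adjusted p below 0.05, which is 1.03% (0.789% lower and 0.24% higher under the KO label). All 12 macrophage markers were among the lower ones, with summed levels of 1213 to 1298 CPM (WT-labelled) and 549 to 684 CPM (KO-labelled). In bulk samples, fewer cells of a type and less RNA per cell cannot be told apart.

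By its counts, in which reads of Stk16 in the exon overlap cannot be told apart, Tuba4a was the most abundant tubulin gene in every library. Among the alpha members it alone has no final tyrosine codon, and it is known from muscle and platelets. WT 1, WT 2 and WT 3 had 510, 464 and 459 CPM of it, and KO 1, KO 2 and KO 3 had 524, 562 and 426 CPM. The groups overlapped, with KO 3 lowest and KO 2 highest of the 6 libraries. The means were 478 ± 27.8 CPM against 504 ± 70.6 CPM (n = 3 each, SD), a log2 fold change of 0.08 (SE 0.10, edgeR adjusted p = 0.842). The 95% interval of the difference, -0.13 to 0.28 on the log2 scale, spans 0.915-fold to 1.22-fold. The sign turned with total-count scaling (log2 -0.03) and without KO 2 (log2 -0.01).

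Tuba1c followed Tuba4a in the order of levels. WT 1, WT 2 and WT 3 had 247, 235 and 206 CPM, and KO 1, KO 2 and KO 3 had 260, 264 and 204 CPM. The groups overlapped (log2 0.08, SE 0.10, 95% interval -0.14 to 0.30, edgeR adjusted p = 0.849). Total-count scaling turned the sign (log2 -0.03). The value was 0.01 without WT 3 or without KO 2 and 0.19 without KO 3.

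Tuba1b and Tuba1a each separated the groups without overlap on the TMM scale, in opposite directions, and neither passed the test. Tuba1b is an alpha isotype gene expressed in most cells. WT 1, WT 2 and WT 3 had 169, 147 and 162 CPM of it. KO 1, KO 2 and KO 3 had 129, 143 and 122 CPM, each below the lowest WT-labelled library. The log2 fold change was -0.28 (SE 0.09, 95% interval -0.47 to -0.09), with an unadjusted p of 0.00717 and an adjusted p of 0.197 over all genes (edgeR). With scaling to the total count only, which moved the median of all genes by -0.10 on the log2 scale, the value was -0.39 and passed the test (edgeR adjusted p = 0.0468, where 1.56% of all genes passed).

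Tuba1a is the alpha isotype gene known for its role in developing neurons. WT 1, WT 2 and WT 3 had 104, 106 and 91.0 CPM of it. KO 1, KO 2 and KO 3 had 139, 112 and 107 CPM, each above the highest WT-labelled library, KO 3 by little. Per total count alone the groups overlapped, with 105.9 and 105.3 counts per 1000000 in KO 2 and KO 3 below the 107.9 of WT 1. The log2 fold change was 0.25 (SE 0.11, 95% interval 0.02 to 0.47), with an unadjusted p of 0.0338 and an adjusted p of 0.382 (edgeR). It was 0.12 without KO 1, the library with the highest level.

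Summed over Tuba1a, Tuba1b and Tuba1c, a sum that does not depend on how reads were divided among the 3 genes, WT 1, WT 2 and WT 3 had 520, 489 and 459 CPM. KO 1, KO 2 and KO 3 had 528, 519 and 433 CPM. The means were 489 ± 30.5 CPM against 494 ± 52.4 CPM (n = 3 each, SD), a ratio of 1.01, and the groups overlapped. Whether reads shared by the Tuba1 genes were divided differently in the libraries was not tested.

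Tubb4b was the most abundant beta tubulin gene by mean level and encodes an isotype found in most tissues and in the axonemes of cilia. WT 1, WT 2 and WT 3 had 142, 119 and 111 CPM, and KO 1, KO 2 and KO 3 had 125, 131 and 114 CPM. Both the highest and the lowest value were in WT-labelled libraries. The log2 fold change was -0.01 (SE 0.10, 95% interval -0.22 to 0.21, edgeR adjusted p = 0.984). Its sign turned with DESeq2 (log2 0.0014), without WT 1 (0.10) and without KO 3 (0.04).

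Tubb5, the beta isotype gene expressed in most cells, varied least between libraries among the 7 tested members. In WT 1 to WT 3 its level was 85.5, 75.6 and 76.4 CPM, and KO 1, KO 2 and KO 3 had 83.1, 82.0 and 79.4 CPM. All KO-labelled values lay within the range of the WT-labelled ones (log2 0.04, SE 0.09, 95% interval -0.14 to 0.22, edgeR adjusted p = 0.912). With total-count scaling the value was -0.06. The within-group SD of log2 CPM was 0.073, beside a median of 0.141 over the 5930 tested genes at 10 CPM or more. The other abundant members had values of 0.110 (Tuba1b) to 0.175 (Tuba1c).

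Tubb2a, a beta isotype gene best known from brain, was far lower. The libraries WT 1 to WT 3 had 61, 55 and 59 counts of it (7.46, 5.61 and 7.93 CPM). KO 1, KO 2 and KO 3 had 22, 32 and 43 counts (2.96, 4.70 and 4.79 CPM). The groups did not overlap, and KO 1 was the lowest. The log2 fold change was -0.74 (SE 0.28, 95% interval -1.33 to -0.15), with an unadjusted p of 0.0171 and an adjusted p of 0.297 (edgeR), and it was -0.55 without KO 1. The 272 counts in all limit its precision. All 12 macrophage markers and 4 of the 12 tested platelet markers fell in the same comparison, beside 0.789% of all tested genes. The part of such cells in the Tubb2a level was not tested.

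Tubb6 was near the limit of detection: WT 1, WT 2 and WT 3 had 10, 3 and 13 counts, and KO 1, KO 2 and KO 3 had 3, 6 and 6. These correspond to 0.306 to 1.75 CPM against 0.403 to 0.880 CPM, which overlap. In WT 2, for example, 3 counts allow a share of 0.064 to 0.907 CPM (exact binomial 95% interval on total counts, covering counting error only). The gene did not pass the filter. With no filter its log2 fold change was -0.71 (95% interval -2.34 to 0.91, adjusted p = 0.790, edgeR).

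Tubb1, which encodes the beta tubulin of the marginal band of platelets and is expressed in megakaryocytes, was listed at 0 counts in all 6 libraries. A floor of 3 counts allows up to 0.310 to 0.427 CPM per library, and the exact binomial 95% interval, which is two-sided, reaches 0.382 to 0.526 CPM. All 14 other megakaryocyte and platelet markers had counts, with summed levels of 494 to 552 CPM (WT-labelled) and 415 to 453 CPM (KO-labelled). Gp1bb, which encodes a subunit of the platelet receptor for von Willebrand factor, was the highest of them at 222 to 247 CPM against 218 to 267 CPM. Itgb3, the next highest, was at 81.7 to 104 CPM against 81.1 to 88.5 CPM. Neither was called (edgeR adjusted p = 0.889 and 0.565). Levels within the list were uneven, and Gp1ba had 16 counts over the 6 libraries. Pf4, for platelet factor 4, was at 44.9 to 58.2 CPM under the WT label and fell by 0.77 on the log2 scale (SE 0.16, edgeR adjusted p = 0.0282). Ppbp, for the precursor of another platelet chemokine, was at 53.5 to 63.3 CPM and fell by 1.03 (SE 0.15, edgeR adjusted p = 0.00210). With Itga2b and Nrgn, 4 of the 12 tested markers of this list fell, beside 0.789% of all tested genes. Of the 12, 11 lay below 0 and 1 above, with a median log2 fold change of -0.88, beside 0.01 for all tested genes.

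The gene model of Tubb1 in GENCODE vM21 ends with the stop codon, with 0 bases after it, at 174457882. The RefSeq model of the same assembly runs 498 bases further, to 174458380. The other 8 members had 101 (Tuba1c) to 1394 (Tuba4a) bases after the stop codon in GENCODE. The GENCODE end of Tuba4a lies 744 bases beyond its RefSeq end. Libraries of 3′ tags read mainly the last bases of a transcript. No source used here names the annotation release behind the deposited counts, and whether tags of Tubb1 fell beyond its annotated end was not tested.

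**Figure D2:**
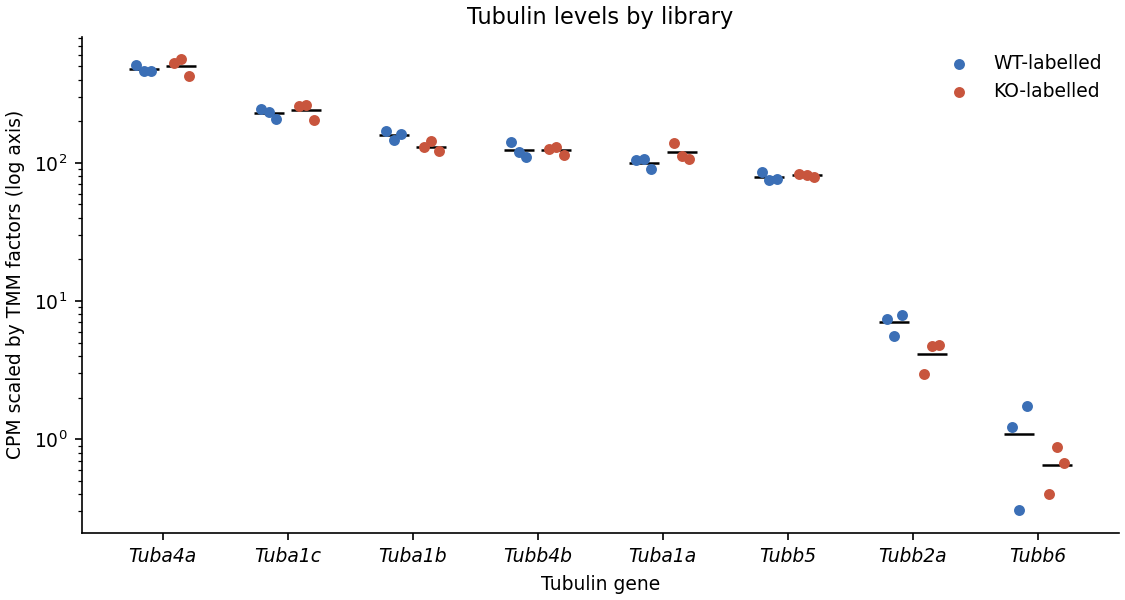
Level of each detected tubulin gene in every library (y axis, CPM scaled by TMM factors, log axis), with 3 WT-labelled and 3 KO-labelled libraries per gene as points and group means as lines. Tuba4a lies highest at 426 to 562 CPM, Tubb2a and Tubb6 lie far below the other genes, and Tubb1 is left out because all its counts are 0.

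In the order of mean levels over the 6 libraries, Tuba4a (491 CPM) came before Tuba1c (236), Tuba1b (145), Tubb4b (124), Tuba1a (110), Tubb5 (80.3), Tubb2a (5.57) and Tubb6 (0.871). Tuba1b and Tubb4b overlapped in their library values, as did Tubb4b and Tuba1a. All other neighbours in the order were separated in all 6 libraries. The step from Tubb5 to Tubb2a was 14.4-fold. Per kilobase of annotated exon, the mean levels were 133 CPM for Tuba4a, 103 for Tuba1c, 77.5 for Tuba1b, 61.0 for Tuba1a, 59.3 for Tubb4b and 24.1 for Tubb5. Only Tubb4b and Tuba1a changed places on that scale.

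The summed alpha level was several times the summed beta level in every library. The 4 alpha genes summed to 1030, 953 and 919 CPM in the libraries WT 1 to WT 3, and to 1053, 1081 and 859 CPM in KO 1 to KO 3. The 5 beta genes summed to 237, 201 and 197 CPM in WT 1 to WT 3, and to 212, 219 and 199 CPM in KO 1 to KO 3. Both sums overlapped between the groups. The ratio of alpha to beta counts was 4.59 ± 0.21 under the WT label and 4.74 ± 0.38 under the KO label (n = 3 each, SD). Tuba4a, the gene whose exons overlap Stk16, was the largest term of the alpha sum. The 9 genes together took 0.104% to 0.131% of all counts.

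Relative to their own size, the shares of the most abundant genes of each family varied less between libraries than those of Tuba1b and Tubb2a. Tuba4a took 48.7% to 52.0% of the alpha counts and Tuba1c 22.5% to 24.7%. Tuba1b took 16.4%, 15.4% and 17.6% in WT 1 to WT 3, and 12.3%, 13.2% and 14.2% in KO 1 to KO 3, so that its share was lower in each KO-labelled library. Tuba1a took 9.90% to 11.1% against 10.3% to 13.2%, and the groups overlapped through KO 2. Of the beta counts, Tubb4b took 56.2% to 60.2% and Tubb5 36.1% to 39.8%. Tubb2a took 3.15%, 2.79% and 4.03% in WT 1 to WT 3, and 1.40%, 2.15% and 2.40% in KO 1 to KO 3, again without overlap.

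**Figure D3:**
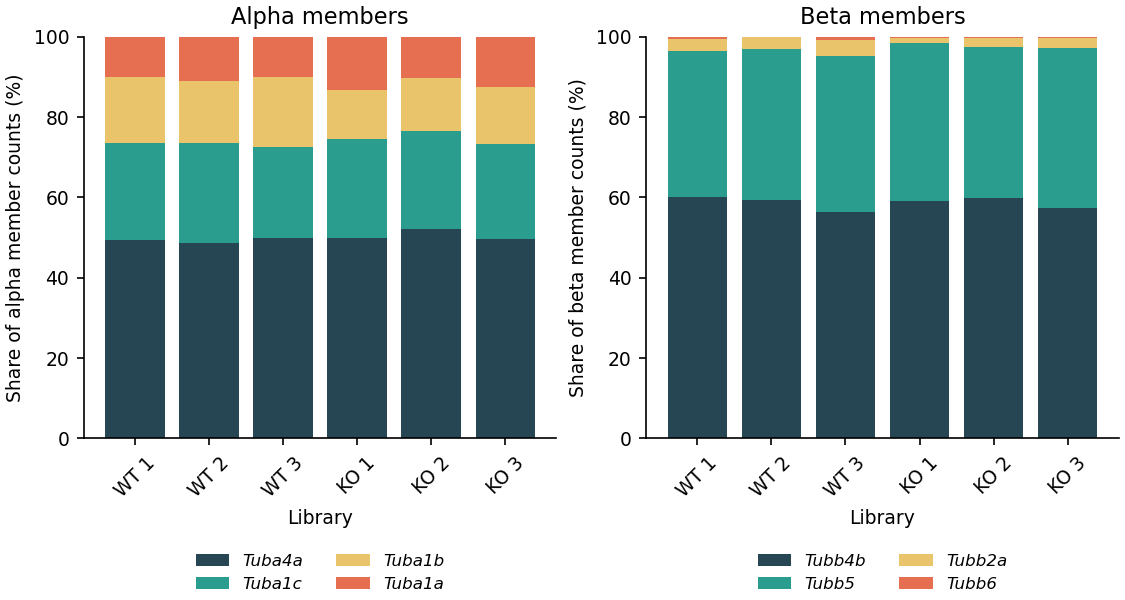
Share of each isotype gene in the counts of the alpha genes (left) and of the beta genes (right), in percent of that family's counts, for each of the 6 libraries. Tuba4a holds 48.7% to 52.0% of the alpha counts and Tubb4b 56.2% to 60.2% of the beta counts, and the Tuba1b band is thinner in all 3 KO-labelled libraries.

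Ratios of counts within a library do not depend on scaling between libraries. They were computed for all 9 pairs among the 4 alpha genes and among Tubb5, Tubb4b and Tubb2a, after the levels had been seen. Tuba1c was at 0.449 to 0.507 of the Tuba4a count in all 6 libraries and Tubb5 at 0.601 to 0.694 of the Tubb4b count. These 2 ratios did not separate the groups (exact two-sided permutation p = 1.0 and 0.6). Neither did Tuba1a against Tuba1c (log2 difference 0.17, exact permutation p = 0.4) or against Tuba4a (0.17, exact permutation p = 0.3). The ratio of Tuba1a to Tuba1b was 0.617, 0.721 and 0.561 in WT 1 to WT 3, and 1.07, 0.779 and 0.883 in KO 1 to KO 3. All KO-labelled libraries lay above all WT-labelled ones, by 0.52 in the mean log2 ratio (0.40 without KO 1), where the groups had SDs of 0.18 and 0.23. Tuba1b was also lower against Tuba1c (log2 difference -0.35) and against Tuba4a (-0.35) without overlap. Tubb2a was lower against Tubb5 and against Tubb4b, whose log2 ratios to it were higher by 0.82 and 0.77. For these 5 ratios the exact two-sided permutation p was 0.1, the smallest that 3 against 3 libraries allow, and 0.180 after adjustment over the 9 pairs. Neither is below 0.05. Each of the 5 ratios holds Tuba1b or Tubb2a, whose levels already separated the groups, so the ratios are not independent of those levels. Ratios among the Tuba1 genes also depend on how reads shared by these genes were divided.

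Of the 7 tested tubulin genes, 0 passed the test by edgeR, DESeq2 or limma-voom, beside 1.03% of all tested genes by edgeR. At an unadjusted p below 0.05 there were 3 of 7, beside 11.4% of all tested genes. The same 3 genes, Tuba1b, Tubb2a and Tuba1a, were those whose groups did not overlap, beside 16.8% of all tested genes. By direction, 2 of 7 lay lower without overlap beside 9.3% of all tested genes, and 1 of 7 higher beside 7.54%. The median log2 fold change of the 7 genes was 0.04, and that of all tested genes 0.01. Among the abundant members, the outermost bounds of the 95% intervals were -0.47 (Tuba1b) and 0.47 (Tuba1a) on the log2 scale, or 0.722-fold and 1.39-fold.

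**Figure D4:**
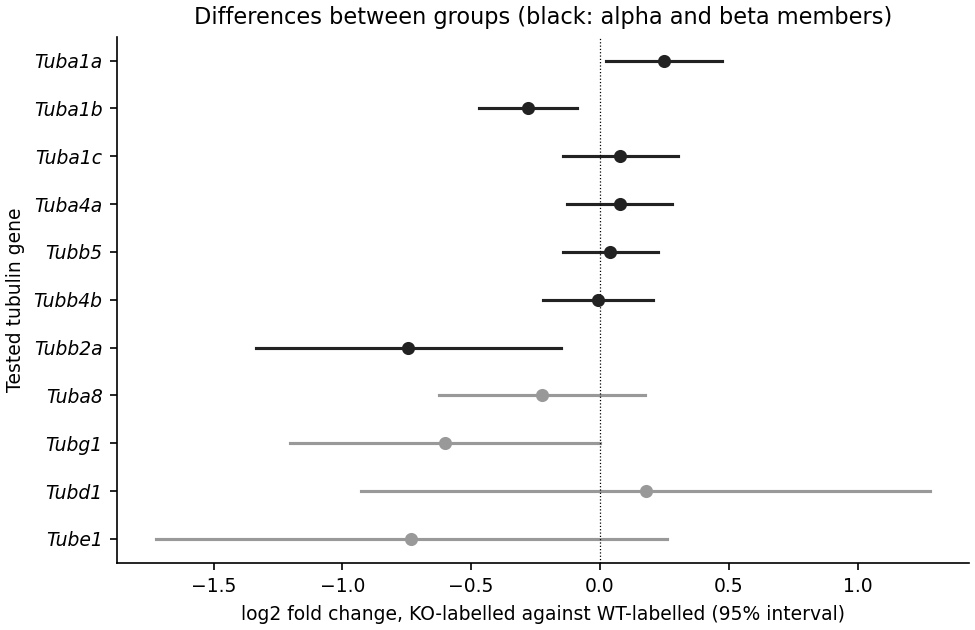
Log2 fold change of each tested tubulin gene, KO-labelled against WT-labelled libraries (x axis), with its 95% interval as a line, members in black and other tubulin genes in grey. Intervals of the abundant members stay between -0.47 and 0.47, and those of Tubb2a, Tuba8, Tubg1, Tubd1 and Tube1 are wider.

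Of the 11 other tubulin genes, 7 had counts and 4 were tested. Tuba8, an alpha isotype gene with a restricted tissue distribution, was at 15.8, 12.6 and 15.9 CPM in WT 1 to WT 3, and at 13.7, 14.4 and 9.91 CPM in KO 1 to KO 3. These overlap (log2 -0.22, SE 0.19, edgeR adjusted p = 0.732). Tubg1 encodes gamma tubulin, which nucleates microtubules at the centrosome. It was at 5.99, 4.48 and 6.05 CPM in WT 1 to WT 3, and at 3.23, 3.82 and 3.79 CPM in KO 1 to KO 3. The groups did not overlap, and the gene did not pass the test (log2 -0.60, SE 0.28, edgeR adjusted p = 0.439). Tubd1 (log2 0.18, SE 0.52) and Tube1 (log2 -0.73, SE 0.46), for the centriolar delta and epsilon tubulins, did not pass either. Tubb2b had 19 counts over the 6 libraries, Tubb3 3 counts, all in KO 1, and Tubg2 2 counts, both in WT 1. Tuba3a, Tuba3b, Tubal3 and Tubb4a, known from testis, gut or brain, were listed at 0.

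In the 5 lists of genes that act on tubulin, 0 of the tested genes passed the test, beside 1.03% of all tested genes. In the list of tubulin folding and assembly, which holds the chaperonin, prefoldin and the tubulin cofactors, 21 of 22 genes were tested, with a median log2 fold change of 0.01. The values ran from -0.49 to 0.45. Tcp1, a chaperonin subunit gene, was at 22.0, 25.5 and 22.6 CPM in WT 1 to WT 3, and at 14.5, 19.4 and 16.1 CPM in KO 1 to KO 3, without overlap (log2 -0.49, SE 0.15, edgeR adjusted p = 0.185). Vbp1, a prefoldin subunit gene, was at log2 0.43 (SE 0.17, edgeR adjusted p = 0.341), with overlap. Ttc5, the gene of the autoregulation step above, had 7, 11 and 6 counts in WT 1 to WT 3, and 14, 9 and 10 counts in KO 1 to KO 3, and did not pass the filter.

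Genes of the enzymes that modify tubulin were sparse. Of 25 listed genes, 19 had counts and 8 were tested, with a median log2 fold change of 0.11. Sirt2, a deacetylase gene, was the highest, at 42.5 to 45.9 CPM against 46.5 to 53.6 CPM (log2 0.17, SE 0.10, edgeR adjusted p = 0.579). Ttll1, the catalytic subunit gene of a polyglutamylase, was at log2 0.51 (SE 0.33, adjusted p = 0.618). Ttl, which encodes the ligase that restores the final tyrosine, had a mean of 1.06 CPM against 0.580 CPM and did not pass the filter. Ttc5 and Ttl were named for their roles, with their values known.

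In the microtubule nucleation list 18 of 20 genes were tested, with a median of 0.15 and a range of -0.84 to 0.87. Akap9, for a large scaffold at the centrosome and Golgi, was at 28.1 CPM against 22.5 CPM in the means, without overlap (log2 -0.32, SE 0.14, edgeR adjusted p = 0.384). Tubgcp6, for a subunit of the gamma tubulin ring complex, was at log2 -0.47 (SE 0.21, adjusted p = 0.408).

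Of the list of microtubule binding and plus end genes 15 of 24 were tested, with a median of 0.04. Mtus1, for a microtubule-associated protein, was the most abundant, at 296 to 306 CPM against 322 to 332 CPM (log2 0.12, SE 0.07, edgeR adjusted p = 0.605). Camsap2, for a protein of microtubule minus ends, was at 2.06 CPM against 1.19 CPM in the means (log2 -0.80, SE 0.48, edgeR adjusted p = 0.583).

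In the list of severing and depolymerising genes 8 of 15 were tested, with a median of -0.07. Kif2c, a depolymerising kinesin gene of dividing cells, was at log2 -0.84 (SE 0.43, edgeR adjusted p = 0.489). Groups did not overlap for 4 of 21, 1 of 8, 4 of 18, 2 of 15 and 3 of 8 tested genes of these 5 lists, in the order given, beside 16.8% of all tested genes.

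**Figure D5:**
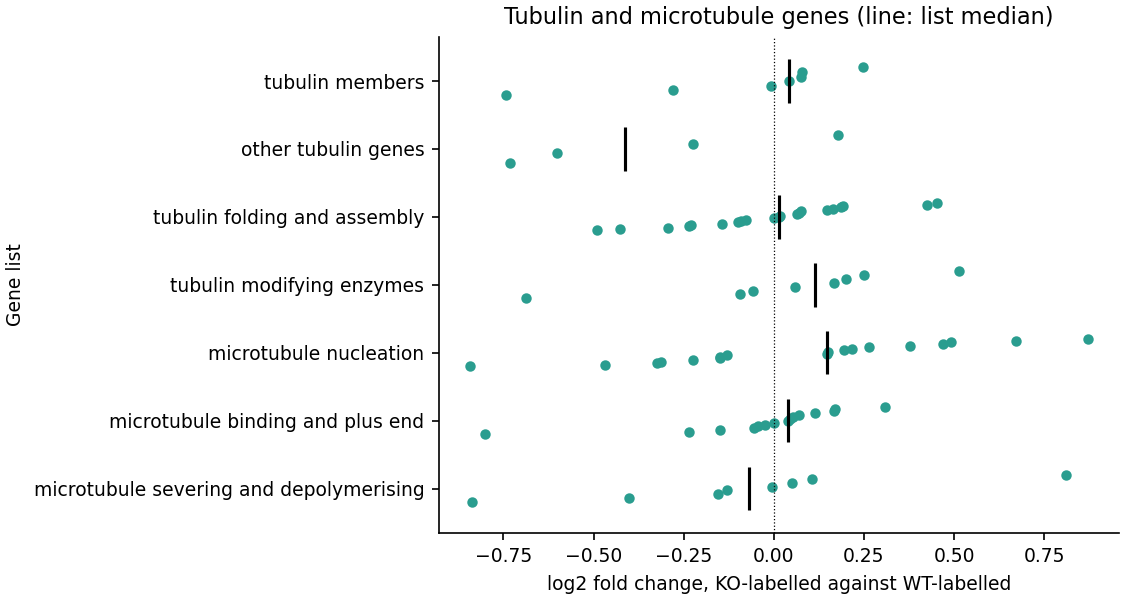
Log2 fold change of each tested gene (points, x axis), KO-labelled against WT-labelled libraries, in the tubulin and microtubule gene lists (y axis), with each list's median as a line. No gene shown passed the test, and the medians of the 5 lists of genes acting on tubulin lie between -0.07 and 0.15.

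Several tubulin genes are known to be high in dividing cells, so markers of proliferating precursors were read in the same libraries. None of the 15 passed the test, beside 1.03% of all tested genes. Their median log2 fold change was -0.05, with summed levels of 203 to 257 CPM (WT-labelled) and 201 to 247 CPM (KO-labelled). Mki67, a gene of cycling cells, was at 30.5 to 42.7 CPM against 28.7 to 41.1 CPM. The 5 promyelocyte markers had a median of -0.18 and summed levels of 44.2 to 56.9 CPM against 33.5 to 47.7 CPM. Of these 5, 0 passed the test, beside the same 1.03%. Mpo, the myeloperoxidase gene, was at 25.3 to 35.4 CPM against 16.5 to 27.3 CPM (log2 -0.59, SE 0.19, edgeR adjusted p = 0.193). Monocyte and erythroid markers had medians of -0.18 and 0.08 with 0 genes called, again beside 1.03% of all tested genes. Of the 5 T and NK cell markers 2 were tested and not called, Cd3d at log2 0.27 and Nkg7 at -0.79. Their summed levels were 1454 to 1695 against 1520 to 1685 CPM, 1284 to 2126 against 1401 to 2782 CPM and 30.4 to 39.0 against 37.4 to 43.9 CPM. In the B and plasma cell list 3 of 7 genes rose, beside 0.24% of all tested genes. These were Igkc, Igha and Jchain, which encode antibody chains. The B cell receptor gene Cd79b was at log2 -0.76 without overlap and was not called (edgeR adjusted p = 0.15). The summed level of the list was 247 to 315 CPM under the WT label. KO 1, KO 2 and KO 3 had 508, 1235 and 468 CPM, so that KO 2 alone sets the upper end. In the eosinophil and basophil list 1 of 4 tested genes fell, beside 0.789% of all tested genes. This was Ccr3, at 29.7 to 39.1 against 10.7 to 22.7 CPM, and the summed level of the list was 46.5 to 64.4 against 28.6 to 41.1 CPM. Of the 4 tested genes, 2 lay below 0 and 2 above. Prg2 was at 4.89 to 14.2 against 6.59 to 11.6 CPM (log2 0.01, SE 0.31, edgeR adjusted p = 0.994). The part of these cells in the tubulin levels was not tested.

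The genes whose pattern over the 6 libraries was most like that of Tuba4a were Fcf1, Tmem14c and D830025C05Rik, with root mean square differences of log2 CPM of 0.030, 0.036 and 0.038 after each gene was set to its own mean. The median over the 5930 genes compared was 0.189. For Tubb4b they were Abraxas2 (0.042), Exosc10 (0.044) and Synrg (0.046), beside a median of 0.181. Over 6 libraries such likeness is a description only, and no gene could be compared with Tubb1.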

How the data were processed

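RNA of 6 samples, 3 labelled WT and 3 labelled KO, was analysed. The authors deposited whole-number counts of reads for each Ensembl gene, without scaling. The submitters' processing notes list RSEM 1.2.3, DESeq2 and mm10 and do not say what each did. No source used here gives the aligner, annotation release or strand setting. Columns were matched to samples by name. Gene names (51596 of 51789 identifiers), coordinates, exon overlaps and transcripts came from GENCODE vM21, and the second set of gene ends from RefSeq (GRCm38.p6).

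The test was edgeR 4.0.16 under R 4.3.3 (functions glmQLFit, glmQLFTest, TMM factors, filterByExpr with minimum count 10 and minimum total 15, group as the only term). Benjamini-Hochberg adjustment covered 10397 genes at a threshold of 0.05. SE is the absolute log2 fold change over the square root of F. No pair of replicates agreed within sampling noise (chi-square per degree of freedom 4.12 to 6.79). The fit was tested on simulated counts. Alternatives were DESeq2 1.42.0, limma-voom (limma 3.58.1), other scalings and filters, a replicate block and leaving out each library. Members, lists and the naming rule were chosen with earlier results of these data known. The rule named all members, other tubulin genes with counts, the 2 smallest p of each pathway list, the 2 most abundant markers of each cell type, called platelet markers, and the 3 genes most like the leading alpha and beta genes (pseudocount 0.5). Some items that the rule covers are not reported here.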

Additional observations from a re-analysis of the deposited data

How the results depend on the processing

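Over 14 alternatives, Tuba1a (log2 0.12 to 0.32, adjusted p 0.308 to 0.735) and Tubb2a (-0.88 to -0.55, adjusted p 0.177 to 0.572) kept their direction and were called in none. Tuba1b ran from -0.39 to -0.23 and was called with total-count scaling only (-0.39, adjusted p = 0.0468, otherwise up to 0.542). With total-count scaling the signs turned for Tuba1c (-0.026), Tuba4a (-0.030) and Tubb5 (-0.063). Leaving out 1 library gave 0.010 to 0.19 for Tuba1c, 0.0097 to 0.10 for Tubb5, -0.012 (without KO 2) to 0.18 for Tuba4a and -0.081 to 0.10 for Tubb4b, which turned sign without WT 1 (0.10) and without KO 3 (0.04), and also with DESeq2 (0.0014). None of these was called. The summed alpha difference ran from -41.4 to 99.9 CPM and the summed beta difference from -16.9 to 11.1 CPM over 10 alternatives each. Over all genes 107 were called, 162 with total-count scaling, 287 with no filter, and 49 (without WT 2) to 97 (without KO 3) without 1 library. Per kilobase of exon, 2 members changed rank. Deviations of same-numbered samples from their group means correlated at -0.131 to -0.0118, and those of the other WT and KO pairs at -0.170 to 0.183. With 3 libraries per group, these values cannot show whether samples were paired. With the replicate block 92 genes were called, Tuba1b was at -0.28 (adjusted p = 0.289), and no tubulin call changed. Depth limits Tubb6, for which no difference was detectable. Tuba1a separated the groups with TMM scaling and overlapped per total count.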
